A study of Rattus norvegicus with 4 samples.

Results

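The mitochondrially encoded subunits of complex I were examined in arteries of adult male Sprague-Dawley rats. The group holds 7 of the 26313 Ensembl gene identifiers listed for each sample, chosen by gene identity as mt-Nd1, mt-Nd2, mt-Nd3, mt-Nd4, mt-Nd4l, mt-Nd5 and mt-Nd6, and not by their values. The choice was made with earlier results of these data known. RNA sequencing was done on 2 samples of thoracic aorta (AO1 and AO2), a large conduit artery, and 2 samples of the mesenteric arterial arcade without the superior mesenteric artery (MA1 and MA2), which is made up of small resistance arteries freed of fat. The methods of the study state the removal of fat for the arcade and do not state it separately for the aorta. AO1 and MA1 came from 1 rat while AO2 and MA2 came from a further rat each, no treatment is given for any of them, and each sample is a whole-tissue lysate. The question addressed is how the gene program of small resistance arteries differs from that of the aorta, here for the respiratory chain.

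Complex I, the NADH dehydrogenase, is the entry point of electrons from NADH into the respiratory chain. It passes them to ubiquinone and pumps protons across the inner mitochondrial membrane. Its proteins come from both genomes, and the subunits made inside the mitochondrion form the core of the membrane arm. The mitochondrial DNA is copied into long transcripts that are cut into mRNAs, and its genes have no introns. In most cells many, though not all, of these mRNAs are among the most abundant polyadenylated RNAs, particularly in tissues rich in mitochondria.

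The deposited files pair no identifier with a symbol. The names used here are therefore an assignment that accompanied the identifiers, which were ENSRNOG00000030644 for mt-Nd1, ENSRNOG00000031033 for mt-Nd2, ENSRNOG00000033615 for mt-Nd3, ENSRNOG00000029707 for mt-Nd4, ENSRNOG00000031053 for mt-Nd4l, ENSRNOG00000029971 for mt-Nd5 and ENSRNOG00000029042 for mt-Nd6. Gene lengths solved from the steps of the RPKM (reads on a gene relative to its length and to the size of the library) gave a check. The solved length was 1830 bp for mt-Nd5, 1378 bp for mt-Nd4, 1039 bp for mt-Nd2, 955 bp for mt-Nd1, 519 bp for mt-Nd6, 348 bp for mt-Nd3 and 297 bp for mt-Nd4l. This is the known order of the lengths of these genes, from the longest to the shortest. In all 4 samples the values of the members were whole reads at these lengths, with the largest distance from a whole number at 7.82e-06 reads. The sequence and the position of the members are not given, since the reference used here covers nuclear chromosomes. As the other identifiers could not be named either, smooth muscle, endothelial, fat and other cell markers, the nuclear complex I subunits and the other mitochondrial mRNAs were not analysed here by name. The cell makeup of the samples was thus not checked here. The paper reported the fat markers Resistin and Fabp4 as higher in AO. It set them against Fabp3 and other metabolic mRNAs, whose enrichment in AO was far larger. From this it judged that contamination by fat did not appear to be the reason for its mitochondrial differences, which was not tested here. As deposited, the summed RPKM of the members was 3.51-fold higher in AO, nearer to the paper's value for Fabp4 than to those for these mRNAs. Whether fat has a part in it was not tested. The paper also found Ucp1 high in AO and barely above background in MA. It also stated that differential expression could reflect differing cell populations.

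The solved reads on all genes were between 72515505 and 82443024 per sample, more in both AO samples than in both MA samples. The 7 members took 9398416 and 8493707 of these reads in AO1 and AO2 but 2993165 and 1911665 in MA1 and MA2. Even the member with the fewest reads, mt-Nd3 in MA2, had 51412, for a counting error of 0.441%. Counting error was therefore small against the differences between replicates given below, although it treats reads as independent molecules. With 2 samples per tissue, the smallest two-sided p of an exact permutation test over samples is 0.33. Single quantities are therefore given with their spread, and tests come from the fit across all genes.

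All 7 members were lower in MA than in AO. As deposited, the RPKM in both MA samples lay below that in both AO samples for each of the 7, as it did for 15.4% of the 7203 genes tested. After scaling the samples to each other, the 7 again did not overlap, as was so for 34.4% of the genes tested. On the scaled values the fit called all 7 lower in MA, by 4.40-fold for mt-Nd4 to 6.86-fold for mt-Nd2, against 6.77% of the genes tested called lower and 7.71% called in either direction. At an unadjusted p of at most 0.05 from limma, 18.4% of the genes tested were lower in MA, all 7 members among them. When the solved reads were fitted with limma-voom in place of the RPKM, 3 members (mt-Nd2, mt-Nd3 and mt-Nd6) were called, against 7.59% of the genes tested. With 1 sample left out, limma called 5 members without MA1, against 1.87% of the genes tested, and 0 without AO1, AO2 or MA2, against 0%, 0.278% and 0%. At an unadjusted p of at most 0.05 these last 3 fits had 5, 7 and 7 members lower in MA, against 12.5%, 15.2% and 15.5% of the genes tested. In whole-tissue RNA, fewer mitochondria-rich cells and less of these RNAs per cell cannot be told apart.

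The subunit mt-Nd1 lies where the membrane arm meets the peripheral arm, beside the ubiquinone binding chamber. Its RPKM was 22052 in AO1 and 20902 in AO2, compared with 7513 in MA1 and 5002 in MA2. The AO samples were close to each other and both MA samples were far below them, MA2 more so. The mean was 21477 ± 813 (SD, n = 2) in AO and 6257 ± 1776 (SD, n = 2) in MA, a ratio of 3.43. On the scaled log2 scale MA was lower, with a difference of -2.31 ± 0.32 (standard error) and an adjusted p of 0.0271 in limma.

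The small subunits mt-Nd3, mt-Nd4l and mt-Nd6 sit between mt-Nd1 and the proton pumping modules and take part in linking the ubiquinone site to them. For mt-Nd3 the RPKM was 9815 in AO1 and 7357 in AO2, and 2760.0 in MA1 and 1661 in MA2. This was the member on which the AO samples differed most, by 1.33-fold, yet the tissues did not overlap. Its scaled log2 difference was -2.49 ± 0.38 (standard error), with an adjusted p of 0.0355 in limma. For mt-Nd4l the RPKM was 20682 in AO1 and 19880.3 in AO2, and 8569 in MA1 and 4641 in MA2. Here the AO samples were nearly alike while MA1 was 1.85-fold above MA2, the widest gap between MA samples among the 7. The scaled log2 difference of mt-Nd4l was -2.18 ± 0.38 (standard error), and its adjusted p of 0.0448 in limma was the highest of the group.

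The gene for mt-Nd6 is the only one of the group on the light strand of the mitochondrial DNA, opposite to the other 6. The library kit is taken here to mark no strand, which the sources used here do not state, so reads from mt-Nd6 and from any RNA of the other strand over the same stretch cannot be told apart. Its RPKM was 6881 in AO1 and 7053 in AO2, compared with 2464 in MA1 and 1502 in MA2. In the deposited RPKM the AO samples differed less on this gene, by SD, than on any other member. That was not so after scaling, where the SD in AO was 605 for mt-Nd6 and 217 for mt-Nd5. The scaled log2 difference was -2.36 ± 0.32 (standard error), with an adjusted p of 0.0268 in limma.

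The 3 large subunits mt-Nd2, mt-Nd4 and mt-Nd5 resemble antiporters and form the proton pumping modules. The RPKM of mt-Nd2 was 27069 for AO1 and 23269 for AO2, dropping to 6749 for MA1 and 3958 for MA2. It was the most abundant member in both AO samples and only the fourth in both MA samples. With a ratio of means of 4.70 as deposited and a scaled log2 difference of -2.78 ± 0.37 (standard error; adjusted p of 0.0263 in limma), its difference was the widest of the 7. The RPKM of mt-Nd4 was 21079 in AO1 and 19609 in AO2, compared with 8635 in MA1 and 4937 in MA2. It was the most abundant member in MA1 and, after mt-Nd1, the second in MA2. Its scaled log2 difference of -2.14 ± 0.36 (standard error; adjusted p of 0.0437 in limma) was the smallest of the group. For mt-Nd5 the RPKM was 6947 in AO1 and 7619.7 in AO2, and 2763 in MA1 and 1674 in MA2. As with mt-Nd6, AO2 was here above AO1 in the deposited RPKM, which was not so for the other 5 members. After scaling, AO1 was above AO2 for both genes, at 8803 against 8497 for mt-Nd5 and 8720 against 7864 for mt-Nd6. The scaled log2 difference of mt-Nd5 was -2.26 ± 0.32 (standard error), with an adjusted p of 0.0294 in limma.

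**Figure D1:**
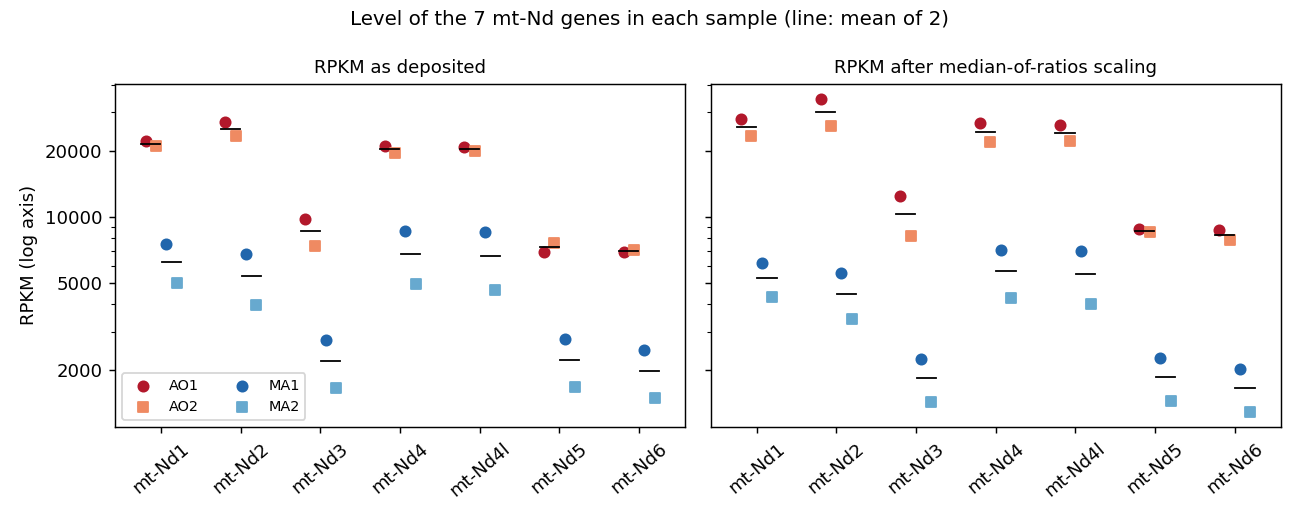
RPKM of each mt-Nd gene in each sample on a log axis, as deposited (left) and after median-of-ratios scaling (right), with a line at the mean of the 2 samples of a tissue. In each panel both MA samples of every gene lie below both AO samples, and scaling widens the gap, for mt-Nd2 from 4.70-fold to 6.73-fold between the means.

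The 7 called members were among 488 genes called lower in MA and 67 called higher, where a called gene had to pass an FDR of 0.05 and a 2-fold limit and lie to the same side of the AO mean in MA1 and MA2. The median log2 difference was -2.31 over the members and -0.05 over all genes tested. Of the genes tested, 0.764% had a lower log2 difference than mt-Nd2 and 2.19% a lower one than mt-Nd4. The differences of other abundant identifiers were mixed. Among the 54 other identifiers with a mean RPKM of at least 1000, 12 were called lower in MA and 0 higher, and their median log2 difference was 0.01. Those whose mean scaled level was above that of every member numbered 7, and all of them were lower in MA by much the same amount as the members, with log2 differences from -2.59 to -2.35 of which 5 passed as called. The 16 identifiers whose mean level lay between the lowest and the highest member had log2 differences from 0.01 to 0.15, and 0 were called by limma, with 0 also at an unadjusted p of at most 0.05. That range is narrow beside the median log2 gap between replicates over all genes tested, 0.20 in AO and 0.24 in MA. Whether the 16 are separate genes or share reads was not tested. Below the members, down to a mean level of 9 on the log2 scale, 62 identifiers had log2 differences from -3.94 to 2.43 with a median of -0.09, of which 10 were called lower in MA and 0 higher. This division by level was made after the values were seen, and the identifiers cannot be named.

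**Figure D2:**
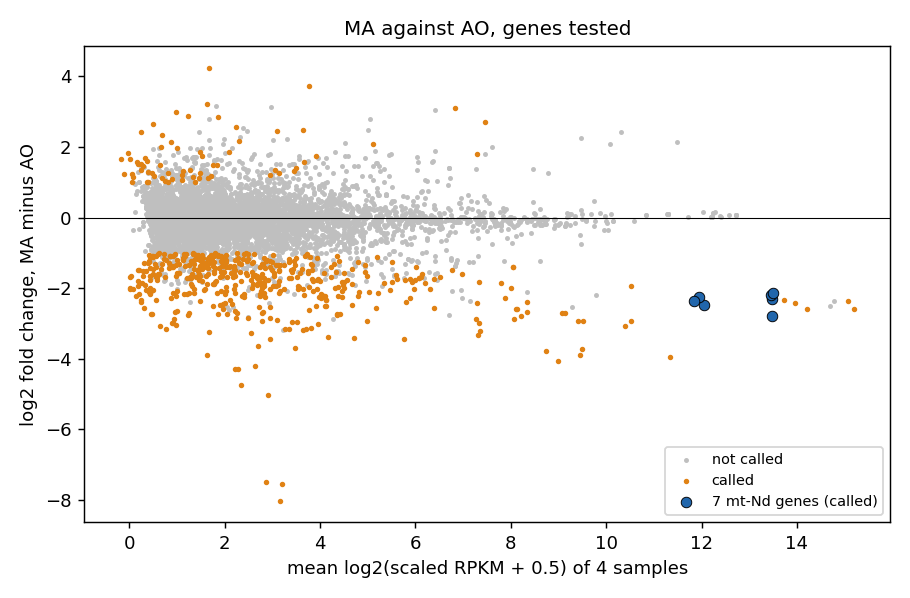
Difference between MA and AO (log2, MA minus AO) against the mean log2(scaled RPKM + 0.5) of the 4 samples for the 7203 genes tested, with called genes in orange and the 7 mt-Nd genes as large blue points. The mt-Nd genes lie between -2.78 and -2.14 toward the right, where 16 other identifiers of similar level lie near 0 and the 7 of still higher level lie between -2.59 and -2.35. Whether those 16 are separate genes or share reads was not tested.

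The size of the difference depended on what a sample was measured against. The members were 3.51-fold higher in AO than in MA by their summed RPKM, which came to 114525 and 105690.0 in AO1 and AO2 but to 39454 and 23374 in MA1 and MA2. The deposited RPKM are set against library size, and they left the typical gene higher in MA, with a median RPKM of the genes tested of 2.49 and 2.76 in the AO samples against 3.42 and 3.35 in the MA samples. Median-of-ratios factors, which were 0.789 and 0.897 for AO1 and AO2 but 1.22 and 1.16 for MA1 and MA2, bring the typical gene to the same level. After division by these factors, the summed RPKM of the members was 5.01-fold higher in AO.

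As a share of the total RPKM of a sample, the gap was narrower. The 7 members together made up 14.9% of AO1 and 16.1% of AO2, while their share of MA1 was 8.57% and of MA2 5.47%. The tissues did not overlap, and the mean was 15.5% ± 0.83 (SD, n = 2) in AO and 7.02% ± 2.19 (SD, n = 2) in MA, a ratio of 2.21 (exact permutation test over samples, two-sided p = 0.33, the smallest this design allows). The total itself was larger in AO, at 767067 (AO1) and 656217 (AO2) against 460141 (MA1) and 427201 (MA2). All identifiers other than the members summed to 1.46-fold more RPKM in AO, and the 10 highest identifiers of a sample held 61.5% and 55.3% of the total in the AO samples but 33.3% and 26.0% in the MA samples. The denominator of the share was thus larger in AO as well. As a share of the solved reads on genes, which does not weigh short genes up, the members took 11.4% of AO1 and 10.7% of AO2 as compared with 4.13% of MA1 and 2.60% of MA2, a ratio of 3.28.

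**Figure D3:**
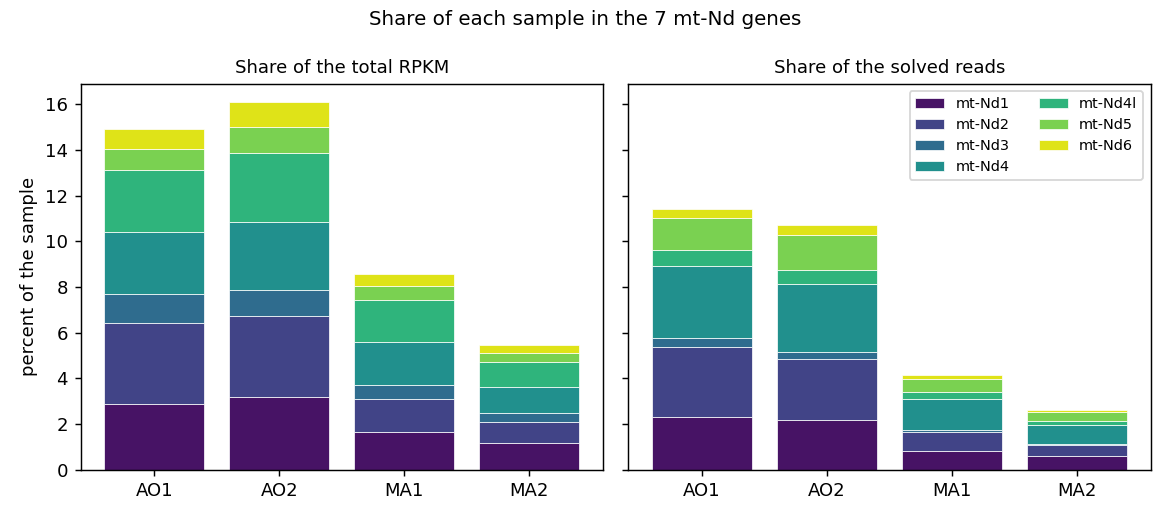
Percent of each sample taken by the 7 mt-Nd genes, stacked by gene, as a share of the total RPKM (left) and of the reads solved from the RPKM (right). Both AO bars are higher than both MA bars on each scale, at 14.9% and 16.1% against 8.57% and 5.47% of the RPKM.

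The calls depended on the scaling. In the RPKM as deposited, 1 member (mt-Nd2) was called lower in MA, against 3.61% of the genes tested, and the other 6 had adjusted p values from limma between 0.0516 and 0.0696. Scaled to the total RPKM, 5 members were called, against 2.60% of the genes tested, and mt-Nd4 and mt-Nd4l were not. All 7 log2 differences were negative under each of the 5 scalings of the samples, with the smallest, -0.77 for mt-Nd4, under quantile normalization, where mt-Nd6 was the 1 member called, against 5.18% of the genes tested. The order of the members also changed under quantile normalization, where the widest difference was -1.86 for mt-Nd6 and that of mt-Nd2 was -1.56. The scalings moved the typical gene as well, since the median log2 difference of all genes tested was 0.37 as deposited, 0.14 with upper-quartile scaling and 0.93 when scaled to the total RPKM. Relative to that median, the median of the members was -2.26 with median-of-ratios scaling, -2.18 as deposited, -2.23 with upper-quartile scaling, -2.06 when scaled to the total RPKM and -1.65 with quantile normalization.

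**Figure D4:**
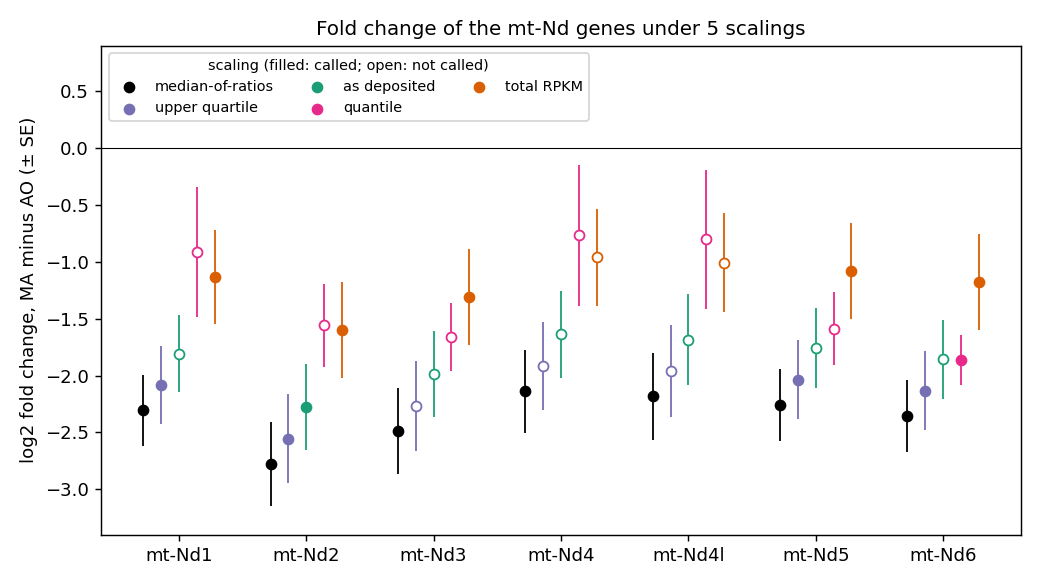
Log2 difference (MA minus AO) with its standard error for each mt-Nd gene under 5 scalings, with filled points for called and open points for not called. All points lie below 0, and mt-Nd2 is called under 4 of the 5 scalings.

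The MA samples differed from each other more than the AO samples did on all 7 members. MA1 was above MA2 by 1.50-fold for mt-Nd1 to 1.85-fold for mt-Nd4l in the deposited RPKM, whereas the ratio of AO1 to AO2 ran from 0.912 for mt-Nd5 to 1.33 for mt-Nd3. After scaling, the absolute log2 difference between MA1 and MA2 was 0.51 for mt-Nd1 and 0.81 for mt-Nd4l, compared with a median of 0.24 over all genes tested. Thus 10.4% of the genes tested differed more between the MA samples than mt-Nd4l did, and 21.7% differed more than mt-Nd1. In AO the members were nearer to typical genes, from 0.05 for mt-Nd5 to 0.60 for mt-Nd3 against a median of 0.20. AO1 was above MA1, from the same animal, by 2.41-fold (mt-Nd4l) to 4.01-fold (mt-Nd2), and AO2 was above MA1 by 2.27-fold (mt-Nd4) to 3.45-fold (mt-Nd2). Against MA2 the ratios were higher for every member, from 4.15-fold (mt-Nd5) to 6.84-fold (mt-Nd2) for AO1 and from 3.97-fold (mt-Nd4) to 5.88-fold (mt-Nd2) for AO2.

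RPKM are per length, so the members can also be set against each other. In both tissues they fell into 2 tiers, with mt-Nd1, mt-Nd2, mt-Nd4 and mt-Nd4l above mt-Nd3, mt-Nd5 and mt-Nd6. In AO the lowest of the upper tier, mt-Nd4l, had a mean of 20281 RPKM and the highest of the lower tier, mt-Nd3, 8586. In MA the corresponding genes were mt-Nd2 at 5354 and mt-Nd5 at 2218, and in neither tissue did the samples of the tiers overlap. Within the tiers, mt-Nd2 was above mt-Nd1 in AO with no overlap of the samples, but the samples of the other neighbouring genes of a tier overlapped. In AO1 and AO2 all 7 members ranked between 7 and 15 among all identifiers, whereas they ranked between 9 and 37 in MA1 and between 25 and 45 in MA2.

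Ratios of the RPKM within a sample do not depend on the totals or on any single factor applied to the sample, although quantile normalization changes them. The pair mt-Nd4l and mt-Nd4, which are read from a single mRNA that carries both, stayed near equal per length, with an mt-Nd4l to mt-Nd4 ratio of 0.981 and 1.01 in AO1 and AO2 and of 0.992 and 0.940 in MA1 and MA2. The tissues overlapped on this ratio. Of the 21 pairs of members, mt-Nd4 and mt-Nd2 had the ratio that differed most between the tissues. It is thus given as the extreme of the 21. Of all pairs of genes tested, 59.3% did not overlap between the tissues in their ratio. The ratio of mt-Nd4 to mt-Nd2 was 0.779 and 0.843 in the AO samples and 1.28 and 1.25 in the MA samples, so that mt-Nd2 was the higher of the pair in both AO samples and the lower in both MA samples. The mean ratio was 0.811 ± 0.045 (SD, n = 2) in AO and 1.26 ± 0.023 (SD, n = 2) in MA, which differ by 1.56-fold, while replicates differed by 0.11 on the log2 scale in AO and 0.04 in MA.

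The ratio of mt-Nd1 to mt-Nd2 turned in the same way, from 0.815 and 0.898 in AO1 and AO2 to 1.11 and 1.26 in MA1 and MA2. Against the mean of the 7 in its sample, mt-Nd2 stood at 1.65 and 1.54 in the AO samples and at 1.20 and 1.19 in the MA samples. The AO values were both above the MA values, and mt-Nd2 also did not overlap between tissues in its ratio to any of the 6 other members. These 6 ratios all share mt-Nd2, and 59.3% of all pairs of genes tested did not overlap either. On the same measure mt-Nd4 stood at 1.29 and 1.30 in AO1 and AO2 and at 1.53 and 1.48 in MA1 and MA2, lower in AO than in MA. The value of mt-Nd4l was likewise lower in both AO samples. For mt-Nd1, mt-Nd3, mt-Nd5 and mt-Nd6 the tissues overlapped, so that 3 of the 7 did not. Set against the same mean, 96.5% of all genes tested did not overlap. That mean was itself lower in MA and is made up of the members, so the 2 shares cannot be compared. The mt-Nd6 to mt-Nd5 ratio, between neighbours on opposite strands, was 0.991 and 0.926 in AO1 and AO2 and 0.892 and 0.897 in MA1 and MA2. It was lower in both MA samples, although the gap between the AO samples (0.10 on the log2 scale) was about as wide as that between the tissues.

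Over all 21 pairs of members, 12 did not overlap between the tissues. Of every possible pair of genes tested, 59.3% did not, so the count over the members is near the background. The exact permutation test over samples of the ratio to the mean of the 7 gave a two-sided p of 0.33, its smallest here, for mt-Nd2, mt-Nd4 and mt-Nd4l, and the ratios of single pairs are given as values with their spread.

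**Figure D5:**
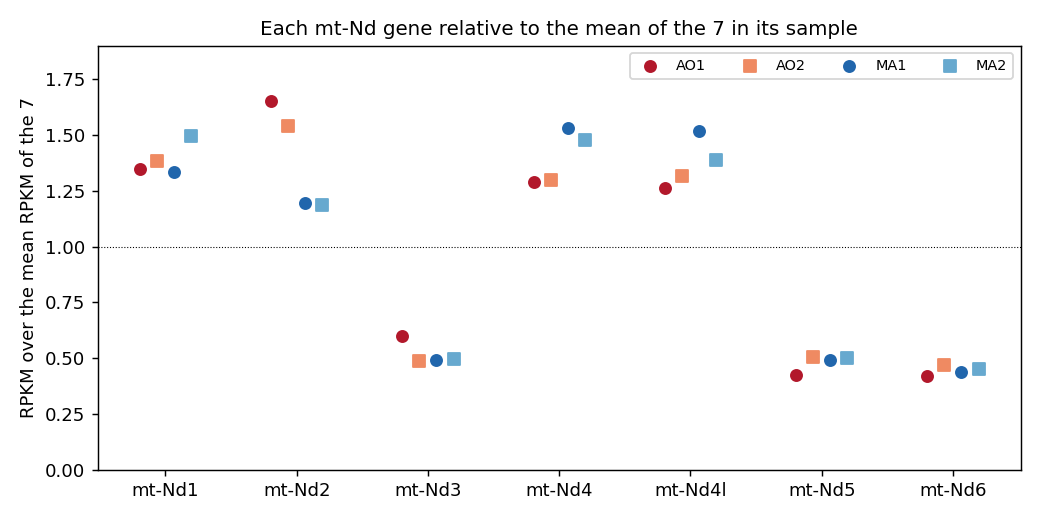
RPKM of each mt-Nd gene divided by the mean RPKM of the 7 in the same sample, with the dotted line at 1. Both AO points of mt-Nd2 (1.65 and 1.54) lie above its MA points (1.20 and 1.19), and both AO points of mt-Nd4 (1.29 and 1.30) lie below its MA points (1.53 and 1.48).

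Outside the group, the profile over the 4 samples that was nearest to the mean profile of the members was that of ENSRNOG00000031766. Likeness was measured as the Euclidean distance of centred log2 scaled RPKM among 301 candidates with a mean RPKM of at least 100. Its distance was 0.22, within the range of the members themselves, which ran from 0.10 for mt-Nd6 to 0.43 for mt-Nd2. The RPKM of this identifier was 29512 and 22596 in AO1 and AO2 and 9616 and 5328 in MA1 and MA2. The second was ENSRNOG00000034234 at a distance of 0.24, with 83289 RPKM for AO1 and 71342 for AO2 against 23682 for MA1 and 14017 for MA2, the highest of any identifier in AO1, AO2 and MA2. Both were chosen for this likeness, so their values are a description. Nothing beyond 4 samples stands behind it.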

How the data were processed

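By the methods of the study, the authors aligned paired-end reads from TruSeq mRNA libraries to the rat genome of Ensembl (release Rnor5.72) with TopHat, discarded reads with more than 2 locations, counted reads per gene and divided by length and library size. Reads shared with nuclear copies of mitochondrial DNA could be lost or misplaced in this step. The deposited values are RPKM, 1 list per sample. Samples were grouped by their labels.

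Samples were scaled by median-of-ratios factors, and log2(scaled RPKM + 0.5) was fitted with limma 3.58.1 in R 4.3.3 (eBayes with a trend) over the 7203 genes that reached an RPKM of 1 in 2 or more samples, all 7 members included. Benjamini-Hochberg adjustment was over these genes. The FDR of 0.05, the limit of 2-fold and a filter on direction follow the study, whose own test ran on read counts not used here. The study also removed genes with low read counts and genes whose MA1 to MA2 ratio lay far from equal. Those filters were not applied here. The scaled MA1 to MA2 ratio of the members ran from 1.43 for mt-Nd1 to 1.75 for mt-Nd4l. All 7 lay above the limit on the within-group ratio that a figure caption of the study names. Its methods give that filter in standard deviations instead. P values rest on the spread between 2 samples per tissue, moderated by a trend over all genes tested. The fit treated AO1 and MA1, from the same rat, as independent.

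Since low RPKM values move in steps of 1 read, library sizes, lengths and whole reads were solved from them (Python 3.11.15, numba 0.67.0, numpy 2.4.6), in a procedure tested on simulated data. The solved library sizes were 90305293 and 87358376 for AO and 83311442 and 88953462 for MA. A solved read may not equal 1 mapped read. Exact permutation tests used scipy 1.17.1.

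The named genes are the 7 members and the 2 identifiers outside them with the nearest profile. Members and lists were chosen with earlier results of these data known. The lists of nuclear complex I subunits, other mitochondrial genes and cell markers could not be read, since no identifier was paired with a symbol.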

Additional observations from a re-analysis of the deposited data

How the results depend on the processing

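The log2 differences of the 7 members were negative under all 16 alternatives of the fit, while their calls were not stable, with 58 of 112 calls lost. The members called numbered 4 with upper-quartile scaling (against 4.83% of the genes tested called lower in MA), 1 with no scaling (3.61%), 1 after quantile normalization (5.18%), 3 under a filter of 0.1 RPKM (2.38%), 3 with limma-voom on the solved reads (7.59%) and 0 of 7 without a filter (limma, adjusted p from 0.138 to 0.201, all 7 with an unadjusted p of at most 0.05). All genes called numbered 368 with the filter of 0.1 RPKM and 0 without a filter (3434 with an unadjusted p of at most 0.05), 3231 when scaled to the total RPKM and 2401 when scaled to that total without the members. Those lower in MA numbered 260, 187, 224 and 0 as deposited, with these 2 totals and without a filter. Those higher in MA numbered 170, 3044, 2177 and 0 in the same order, 43 with a pseudocount of 1, 39 with the filter of 0.1 RPKM, 107 with the replicate block and 134 at an FDR of 0.1. The cause was not tested.

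Leaving out 1 sample, with the lone sample of a tissue assumed to vary like the other tissue, gave 0 to 5 members called, 5 without MA1 and 0 without AO1, AO2 or MA2. All genes called then numbered 0 to 199, lower in MA 0 to 135 and higher in MA 0 to 64, and the log2 difference of the members stayed between -3.13 and -1.78. Fewer samples leave fewer degrees of freedom. The difference in the summed share of total RPKM between AO and MA was 9.08 percentage points without AO1, 7.91 without AO2, 10.05 without MA1 and 6.94 without MA2, against 8.50 with all samples.

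Under a replicate block, 563 genes and 5 members were called (against 6.33% of the genes tested called lower in MA), and mt-Nd4 and mt-Nd4l had an adjusted p of 0.0544 and 0.0548 from limma. The numbers do not pair the samples, as only AO1 and MA1 share a rat and the difference of AO1 from AO2 correlated at 0.018 over genes with that of MA1 from MA2. The counting error of a member in a sample was at most 0.441%.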
